A study of Mus musculus with 11 samples.

Results

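Cadherins and protocadherins are the calcium-dependent adhesion receptors that share the cadherin repeat. Their genes were taken from the deposited gene count table as every row whose mouse symbol is Cdh followed by a number or begins with Pcdh. This gave 53 of the 18756 genes of the table, of which 18 are named Cdh and 35 are named Pcdh. They comprise 5 type I classical cadherins, 9 type II cadherins, 4 GPI-anchored, 7-domain or sensory cadherins, 4 delta-1 protocadherins, 5 delta-2 protocadherins, 3 other non-clustered protocadherins, and 1 alpha, 21 beta and 1 gamma row of the clustered protocadherins.

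Levels were measured by RNA sequencing in 11 skin tumours taken at end-point from C57BL/6 mice of a melanoma model. GNA11 Q209L Bap1 KO (5 libraries) carries the GNA11 Q209L change, an activating change of a G protein alpha subunit, with Bap1 knocked out. GNA11 Q209L (2 libraries) carries the same change and is marked wild type for Bap1 in the header of the table. BRAF V600E Bap1 KO (4 libraries) carries the activating BRAF V600E change and is named as a Bap1 knockout. Bap1 encodes a deubiquitinase that acts as a tumour suppressor. A floxed Bap1 (F/F) is given for all 5 GNA11 Q209L Bap1 KO libraries and, at the top of the table, for all 4 BRAF V600E Bap1 KO libraries. A second header at the foot of the table gives the Bap1 status of BRAF V600E Bap1 KO replicates 2 and 4 as NA. The labels name no promoter that drives the oncogene or a recombinase, no age, sex, pool or batch, and 2 of the GNA11 Q209L Bap1 KO titles (replicates 1 and 2) share an identifier. Setting GNA11 Q209L Bap1 KO against GNA11 Q209L tumours addresses the Bap1 label under one oncogene, and setting GNA11 Q209L Bap1 KO against BRAF V600E Bap1 KO tumours addresses the oncogene under one Bap1 label. GNA11 Q209L against BRAF V600E Bap1 KO differs in the oncogene and in the Bap1 label together.

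Classical cadherins bind the same cadherin on a neighbouring cell, and their cytoplasmic tails hold beta-catenin, which links through alpha-catenin to actin. In skin, E-cadherin (Cdh1) and P-cadherin (Cdh3) join keratinocytes to each other and to melanocytes, and a change of balance towards N-cadherin (Cdh2) is well known from melanoma. Protocadherins lack the catenin-binding tail. Those of the alpha, beta and gamma clusters act as combinatorial surface labels, mainly of neurons.

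The summed deposited counts ran from 18338082 to 81035135 per library, and 3 counts, taken as the limit of detection, corresponded to 0.0337 to 0.166 CPM (counts per 1000000 of the TMM-scaled library size) across the libraries. Bap1 itself, counted over the whole gene, stood at 101.5 to 170 CPM in GNA11 Q209L Bap1 KO tumours, 85.1 and 137 CPM in GNA11 Q209L tumours, and 54.5 to 71.3 CPM in BRAF V600E Bap1 KO tumours, so the gene-level count does not show the knockout. The 10 melanocyte markers (Pmel, Mlana, Tyr and others) summed to 77500 to 100700 CPM in GNA11 Q209L Bap1 KO tumours, 66780 to 69650 CPM in GNA11 Q209L tumours, and 49.4 to 195 CPM in BRAF V600E Bap1 KO tumours. All 10 were detected in each genotype and all 10 were higher in GNA11 Q209L Bap1 KO tumours than in BRAF V600E Bap1 KO tumours, so every difference from BRAF V600E Bap1 KO below accompanies a difference in melanocyte transcripts of that size, and its part in each result was not tested. Xist, the RNA that coats the inactive X chromosome of females, was at 0.706, 0.995, 694.8, 0.428 and 1.42 CPM in GNA11 Q209L Bap1 KO tumours, 358 and 198 CPM in GNA11 Q209L tumours, and 99.8, 0.919, 1223 and 0.261 CPM in BRAF V600E Bap1 KO tumours. Both GNA11 Q209L libraries were thus high, as was 1 of 5 in GNA11 Q209L Bap1 KO tumours, replicate 3, so the Bap1 label and Xist level largely go together between GNA11 Q209L Bap1 KO tumours and GNA11 Q209L tumours. With the Xist level as a covariate, 0 members passed in that comparison (edgeR, 0 without it). In such bulk samples fewer cells of a type and less RNA per cell cannot be told apart. Keratinocyte, glandular, fibroblast and Schwann cell markers also differed between libraries, and their sums are given beside the members they accompany.

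Of the 53 members, 50 passed the filter on low counts and were tested by edgeR's quasi-likelihood test. Between GNA11 Q209L Bap1 KO tumours and GNA11 Q209L tumours, 0 of the 50 had an adjusted p under 0.05, against 0.0288% of all 17350 genes tested (0.00576% higher and 0.0231% lower). There were 9 members with an unadjusted p under 0.05, and limma voom called 0 and DESeq2 called 2. Between GNA11 Q209L Bap1 KO tumours and BRAF V600E Bap1 KO tumours, 21 of the 50 passed (42.0%), close to the 41.2% of all genes. The split was 5 higher, where 16.5% of all genes were higher, and 16 lower (32.0%, against 24.7% of all genes). The median log2 fold change of the 50 was -1.54, against -0.26 for all genes, and 40 of the 50 were below 0. Of these 40, 20 were genes of the beta cluster, which lie side by side and can exchange reads. Between GNA11 Q209L tumours and BRAF V600E Bap1 KO tumours, 1 member rose and 3 fell (8.0%, against 15.2% of all genes, with 9.27% of all genes higher and 5.93% lower). The 3 comparisons share libraries and are not independent of each other. The 3 members that were not tested were low or confined to single libraries. Cdh20 reached 6.82 CPM in BRAF V600E Bap1 KO replicate 3 and at most 0.0523 CPM elsewhere. Pcdh8 reached 10.2 CPM in BRAF V600E Bap1 KO replicate 1 and at most 0.204 CPM elsewhere. Cdh22 did not exceed 0.360 CPM.

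**Figure D1:**
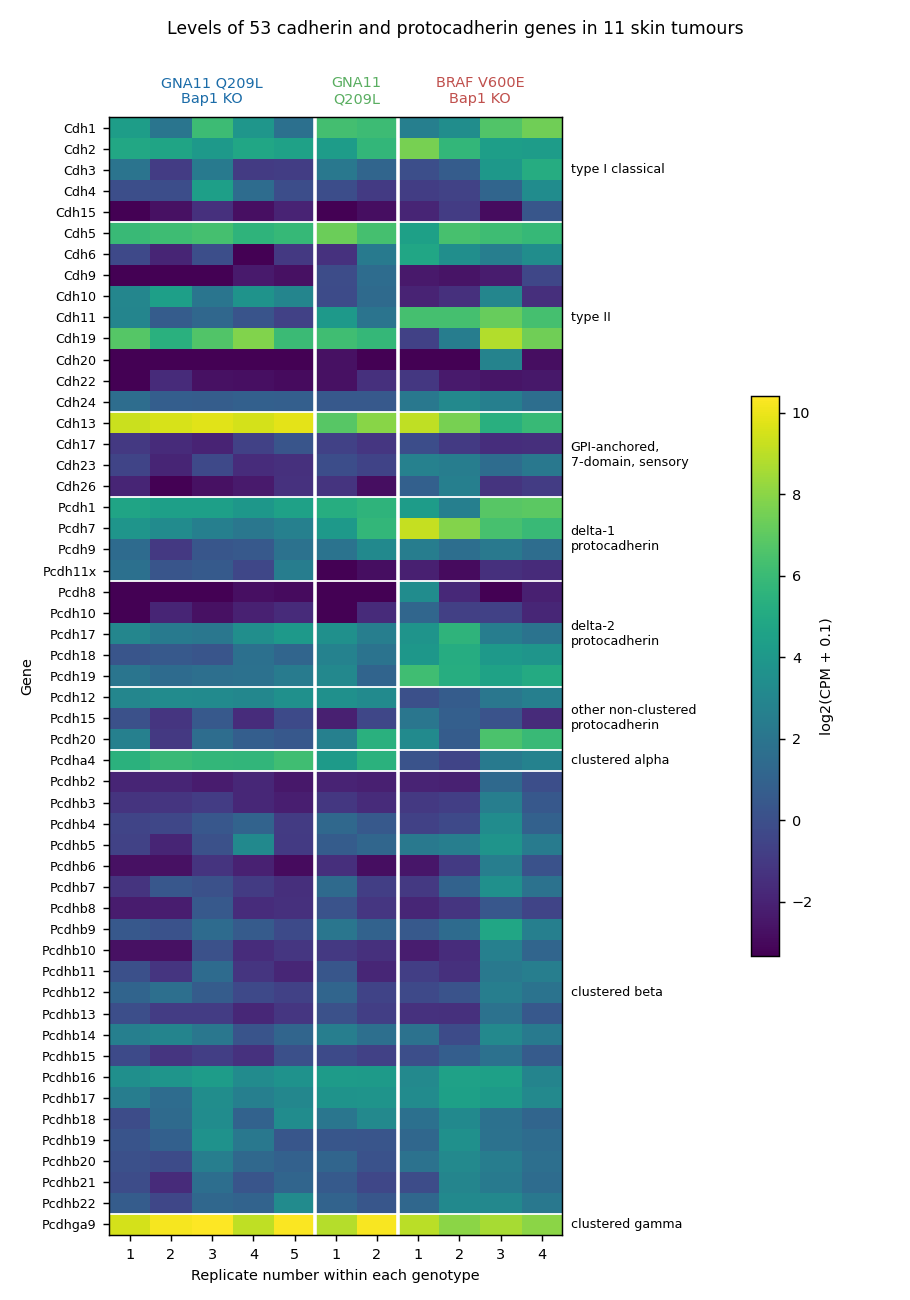
Level of each of the 53 members (rows, grouped by role) in each of the 11 libraries (columns, grouped by genotype and numbered by replicate), as log2(CPM + 0.1). Pcdhga9 and Cdh13 are the brightest rows in GNA11 Q209L Bap1 KO tumours, while the rows of Cdh11, Pcdh7, Pcdh18 and Pcdh19 are each brighter in BRAF V600E Bap1 KO tumours than in the other genotypes.

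Expressed per kilobase of exon, so that genes can be set side by side, the row labelled Pcdhga9 was the most abundant member in every genotype, with mean levels of 182 CPM per kb in GNA11 Q209L Bap1 KO tumours, 151 CPM per kb in GNA11 Q209L tumours and 63.5 CPM per kb in BRAF V600E Bap1 KO tumours. This rank rests on the 5.596 kb exon length of a single gamma gene, and reads of the whole gamma cluster would need another length, so it is uncertain. Next in GNA11 Q209L Bap1 KO tumours came Cdh13 (69.4 CPM per kb), Cdh19 (25.3), Cdh5 (15.3) and Pcdha4 (10.7). In GNA11 Q209L tumours they were Cdh5 (28.3), Cdh13 (16.2), Cdh1 (15.8) and Cdh19 (15.02), and in BRAF V600E Bap1 KO tumours they were Cdh19 (36.5), Pcdh7 (22.8), Cdh13 (18.6) and Cdh1 (15.9). Means hide the spread inside BRAF V600E Bap1 KO. Its libraries ran from 0.539 to 447 CPM for Cdh19, 5.89 to 175 CPM for Cdh1, 40.8 to 539 CPM for Cdh13 and 62.4 to 587 CPM for Pcdh7. Summed over all 53 members, GNA11 Q209L Bap1 KO held 1749 to 2707 CPM, GNA11 Q209L 1114 and 2031 CPM, and BRAF V600E Bap1 KO tumours 1199 to 2183 CPM, which overlap. Pcdhga9 took 31.2 to 53.0% of that sum in GNA11 Q209L Bap1 KO tumours, 41.5 and 60.5% in GNA11 Q209L tumours and 20.2 to 23.5% in BRAF V600E Bap1 KO tumours. The share of Cdh13 was 31.9 to 41.5% in GNA11 Q209L Bap1 KO tumours, 10.1 and 12.3% in GNA11 Q209L tumours and 2.28 to 24.7% in BRAF V600E Bap1 KO tumours.

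None of the 5 type I classical cadherins passed the test in any comparison. Cdh1, the E-cadherin of epithelia, was at 20.1, 3.87, 67.3, 14.7 and 3.23 CPM in GNA11 Q209L Bap1 KO tumours, 77.9 and 66.8 CPM in GNA11 Q209L tumours, and 5.89, 10.4, 100.2 and 175 CPM in BRAF V600E Bap1 KO tumours. Replicate 3 stood far above the other GNA11 Q209L Bap1 KO libraries and at the level of both GNA11 Q209L libraries, which like it were high in Xist, and BRAF V600E Bap1 KO was divided between 2 low and 2 high libraries. Xist was at 99.8 and 0.919 CPM in the 2 low ones and at 1223 and 0.261 CPM in the 2 high ones. The log2 fold change of Cdh1 was -1.73 ± 1.23 (SE; edgeR adjusted p = 0.652) for GNA11 Q209L Bap1 KO over GNA11 Q209L tumours. It was -1.74 ± 1.06 (SE; edgeR adjusted p = 0.203) for GNA11 Q209L Bap1 KO over BRAF V600E Bap1 KO tumours. Without replicate 3 the GNA11 Q209L Bap1 KO mean was 10.48 CPM, in place of 21.9 CPM.

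The high Cdh1 libraries differed in what accompanied them. The 12 keratinocyte markers summed to 7.84 CPM in GNA11 Q209L Bap1 KO replicate 3 and to 17.6 and 13.3 CPM in GNA11 Q209L tumours, where Cdh1 was high. They summed to 14070 and 5319 CPM in BRAF V600E Bap1 KO replicates 3 and 4, where Cdh1 was also high, and to 178 and 396 CPM in replicates 1 and 2. In GNA11 Q209L Bap1 KO replicate 1 they summed to 1695 CPM with Cdh1 at 20.1 CPM. Glandular and simple epithelial markers summed to 132600 CPM in BRAF V600E Bap1 KO replicate 4 and to between 3.19 and 124 CPM in the other 10 libraries. Cdh1 was at 66.8 to 77.9 CPM in 3 GNA11 tumours whose keratinocyte markers summed to 7.84 to 17.6 CPM. In the 2 high BRAF V600E Bap1 KO libraries the part of epithelial RNA was not tested.

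Cdh2, the N-cadherin of neural and mesenchymal cells, was at 30.4, 25.9, 16.6, 27.9 and 22.9 CPM in GNA11 Q209L Bap1 KO tumours, 18.7 and 54.5 CPM in GNA11 Q209L tumours, and 192, 54.4, 20.3 and 18.8 CPM in BRAF V600E Bap1 KO tumours. The GNA11 Q209L Bap1 KO libraries were close together, and BRAF V600E Bap1 KO replicate 1 was far above all others. Cdh2 differed by -0.57 ± 0.78 (SE; edgeR adjusted p = 0.852) on the log2 scale for GNA11 Q209L Bap1 KO over GNA11 Q209L tumours and -1.53 ± 0.64 (SE; edgeR adjusted p = 0.0763) for GNA11 Q209L Bap1 KO over BRAF V600E Bap1 KO tumours. The second of these passed with DESeq2 (adjusted p = 0.0436) and without BRAF V600E Bap1 KO replicate 3 or 4.

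The balance of Cdh1 to Cdh2 was taken within each library as the log2 ratio of their counts, each raised by 2 counts. It was -0.59, -2.71, 2.02, -0.92 and -2.81 in GNA11 Q209L Bap1 KO tumours, 2.05 and 0.29 in GNA11 Q209L tumours, and -5.02, -2.38, 2.30 and 3.21 in BRAF V600E Bap1 KO tumours. Cdh2 counts exceeded Cdh1 counts in 4 of 5 GNA11 Q209L Bap1 KO libraries, in 0 of 2 GNA11 Q209L libraries and in 2 of 4 BRAF V600E Bap1 KO libraries. The exons of Cdh2 (8.066 kb) are longer than those of Cdh1 (4.574 kb), so a balance of 0 is not equal abundance. Per kilobase of exon, the ratio of Cdh1 to Cdh2 was 1.17, 0.263, 7.18, 0.928 and 0.249 in GNA11 Q209L Bap1 KO tumours. It was 7.34 and 2.16 in GNA11 Q209L tumours, and 0.0541, 0.337, 8.71 and 16.3 in BRAF V600E Bap1 KO tumours. The mean balance was -1.003 ± 1.968 in GNA11 Q209L Bap1 KO tumours and 1.17 ± 1.25 in GNA11 Q209L (SD), a difference of -2.18. An exact two-sided permutation test gave p = 0.19, where the smallest possible is 0.0952. Between GNA11 Q209L Bap1 KO tumours and BRAF V600E Bap1 KO (-0.47 ± 3.90, SD) the difference was -0.53 (exact permutation p = 0.762, smallest possible 0.0159), and its sign turned to 0.40 without BRAF V600E Bap1 KO replicate 3 and to 0.70 without replicate 4. Between GNA11 Q209L tumours and BRAF V600E Bap1 KO tumours the difference was 1.65 (exact permutation p = 0.8, smallest possible 0.133). Adjusted over the 3 comparisons, these exact p-values were 0.57, 0.8 and 0.8.

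Cdh3, the P-cadherin of basal keratinocytes, hair follicles and melanocytes, and the next gene to Cdh1 on chromosome 8, was at 3.75, 0.442, 4.92, 0.428 and 0.467 CPM in GNA11 Q209L Bap1 KO tumours, 4.37 and 2.10 CPM in GNA11 Q209L tumours, and 0.888, 1.498, 16.01 and 36.3 CPM in BRAF V600E Bap1 KO tumours. In BRAF V600E Bap1 KO tumours it was high in the same 2 libraries as Cdh1 and as the keratinocyte markers. In GNA11 Q209L Bap1 KO tumours it was higher in replicates 1 and 3 than in the other 3 libraries. Cdh3 differed by -2.78 ± 1.16 (SE; edgeR adjusted p = 0.0744) on the log2 scale for GNA11 Q209L Bap1 KO over BRAF V600E Bap1 KO tumours and did not pass, though it did with DESeq2 (adjusted p = 0.0198) and without BRAF V600E Bap1 KO replicate 1 (adjusted p = 0.0389).

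Cdh4, the R-cadherin first described in retina, was at 0.869, 0.829, 21.4, 2.76 and 0.830 CPM in GNA11 Q209L Bap1 KO tumours, 0.837 and 0.401 CPM in GNA11 Q209L tumours, and 0.472, 0.545, 2.12 and 10.2 CPM in BRAF V600E Bap1 KO tumours. Single libraries stood out in 2 genotypes, replicate 3 of GNA11 Q209L Bap1 KO and replicate 4 of BRAF V600E Bap1 KO. Without replicate 3 the GNA11 Q209L Bap1 KO mean was 1.32 CPM, in place of 5.34 CPM. Cdh15, the M-cadherin of muscle precursors, did not exceed 1.18 CPM, its level in BRAF V600E Bap1 KO replicate 4, where skeletal muscle markers summed to 5069 CPM. These markers summed to 5.62 to 96.0 CPM in GNA11 Q209L Bap1 KO tumours.

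**Figure D2:**
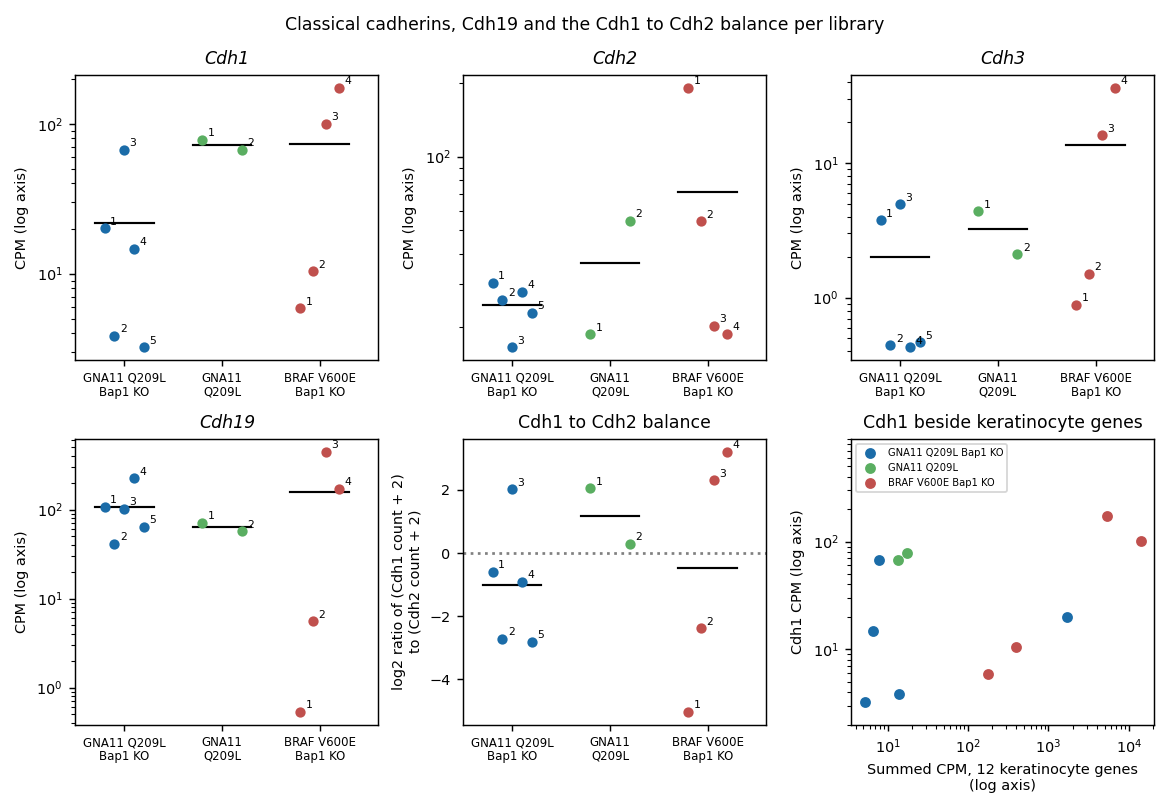
CPM of Cdh1, Cdh2, Cdh3 and Cdh19 per library on log axes and the Cdh1 to Cdh2 balance, with points numbered by replicate and black lines for genotype means. The last panel sets Cdh1 against the summed CPM of 12 keratinocyte genes, with points coloured by genotype and not numbered. In the last panel 3 GNA11 tumours have Cdh1 between 66.8 and 77.9 CPM with keratinocyte sums under 20 CPM, while the high BRAF V600E Bap1 KO libraries have both.

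Among the type II cadherins, 3 of the 7 tested members fell in GNA11 Q209L Bap1 KO tumours relative to BRAF V600E Bap1 KO tumours and 0 rose, against 24.7% and 16.5% of all genes. Cdh11, the OB-cadherin of osteoblasts and mesenchyme, was at 7.44, 1.49, 2.27, 1.10 and 0.536 CPM in GNA11 Q209L Bap1 KO tumours, 17.2 and 3.75 CPM in GNA11 Q209L tumours, and 82.8, 81.7, 147 and 82.4 CPM in BRAF V600E Bap1 KO tumours. All 4 BRAF V600E Bap1 KO libraries stood above all 7 GNA11 libraries, and GNA11 Q209L Bap1 KO tumours and GNA11 Q209L tumours overlapped. The mean was 38.4-fold lower in GNA11 Q209L Bap1 KO tumours than in BRAF V600E Bap1 KO tumours, a log2 fold change of -5.28 ± 0.79 (SE; edgeR adjusted p = 0.00121), and it was -6.21 without GNA11 Q209L Bap1 KO replicate 1, the highest library of its genotype. The log2 fold change of Cdh11 was -2.04 ± 0.81 (SE; edgeR adjusted p = 0.38) for GNA11 Q209L Bap1 KO over GNA11 Q209L tumours.

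Cdh6, a cadherin of kidney and of the early neural crest, was at 0.706, 0.166, 0.865, 0 and 0.380 CPM in GNA11 Q209L Bap1 KO tumours, 0.288 and 4.86 CPM in GNA11 Q209L tumours, and 27.9, 11.1, 5.64 and 10.5 CPM in BRAF V600E Bap1 KO tumours. The GNA11 Q209L Bap1 KO libraries were all under 1 CPM, GNA11 Q209L replicate 2 lay just under the lowest BRAF V600E Bap1 KO library, and GNA11 Q209L Bap1 KO tumours and BRAF V600E Bap1 KO tumours did not overlap. On the log2 scale GNA11 Q209L Bap1 KO over BRAF V600E Bap1 KO was -5.02 ± 1.08 (SE; edgeR adjusted p = 0.00588), and it was -4.43 without BRAF V600E Bap1 KO replicate 1. Cdh24, a less studied type II cadherin, was at 2.88, 1.60, 1.57, 1.71 and 1.68 CPM in GNA11 Q209L Bap1 KO tumours, 1.31 and 1.34 CPM in GNA11 Q209L tumours, and 4.40, 8.55, 5.95 and 2.96 CPM in BRAF V600E Bap1 KO tumours. Its log2 fold change was -1.53 ± 0.40 (SE; edgeR adjusted p = 0.0134) for GNA11 Q209L Bap1 KO over BRAF V600E Bap1 KO tumours, and the lowest BRAF V600E Bap1 KO library lay just above the highest GNA11 Q209L Bap1 KO library. It was also lower in GNA11 Q209L tumours than in BRAF V600E Bap1 KO tumours, by -2.05 ± 0.57 (SE; edgeR adjusted p = 0.0394).

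Fibroblast markers also differed between these genotypes. The 12 fibroblast genes summed to 372 to 2283 CPM in GNA11 Q209L Bap1 KO tumours, 2900 to 11600 CPM in GNA11 Q209L tumours, and 3206 to 18450 CPM in BRAF V600E Bap1 KO tumours, with none at 0, and 11 of the 12 were lower in GNA11 Q209L Bap1 KO tumours than in BRAF V600E Bap1 KO tumours. Their part in the differences of Cdh11, Cdh6 and Cdh24 was not tested. GNA11 Q209L replicate 1, with the highest Cdh11 of the GNA11 libraries (17.2 CPM), had a fibroblast sum of 11600 CPM, while BRAF V600E Bap1 KO replicate 2 had Cdh11 at 81.7 CPM with a sum of 3206 CPM. BRAF V600E Bap1 KO replicate 3 had both the highest Cdh11 (147 CPM) and the highest sum (18450 CPM) of the series. GNA11 Q209L Bap1 KO replicate 1 had both the highest Cdh11 (7.44 CPM) and the highest sum (2283 CPM) of its genotype. Within BRAF V600E Bap1 KO tumours, Cdh6 was highest in replicate 1 (27.9 CPM), with a sum of 3583 CPM. It was lowest in replicate 3 (5.64 CPM), which had the highest sum, 18450 CPM. Cdh24 was highest in replicate 2 (8.55 CPM), which had the lowest sum of that genotype.

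Cdh19, a cadherin of neural crest-derived glia and their precursors, was at 108, 41.6, 103, 225 and 64.4 CPM in GNA11 Q209L Bap1 KO tumours, 71.6 and 56.98 CPM in GNA11 Q209L tumours, and 0.539, 5.55, 447 and 171 CPM in BRAF V600E Bap1 KO tumours. It was present in every GNA11 library, whereas the BRAF V600E Bap1 KO libraries ran from 0.539 CPM to the highest level of the series. Cdh19 had log2 fold changes of 0.75 ± 1.60 (SE; edgeR adjusted p = 0.916) for GNA11 Q209L Bap1 KO over GNA11 Q209L tumours and -0.53 ± 1.22 (SE; edgeR adjusted p = 0.745) for GNA11 Q209L Bap1 KO over BRAF V600E Bap1 KO tumours. The 12 Schwann cell markers summed to 422 to 844 CPM in GNA11 Q209L Bap1 KO tumours and 719.8 to 994 CPM in GNA11 Q209L tumours. In BRAF V600E Bap1 KO tumours they summed to 77.97, 83.2, 2632 and 1511 CPM, low and high in the same libraries as Cdh19, and their part in that pattern was not tested.

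Cdh5, the VE-cadherin of endothelial junctions, was at 61.8, 70.8, 82.4, 48.1 and 57.3 CPM in GNA11 Q209L Bap1 KO tumours, 157 and 80.9 CPM in GNA11 Q209L tumours, and 21.8, 85.1, 69.6 and 58.2 CPM in BRAF V600E Bap1 KO tumours. The groups overlapped, with log2 fold changes of -0.89 ± 0.43 (SE; edgeR adjusted p = 0.478) for GNA11 Q209L Bap1 KO over GNA11 Q209L tumours and 0.13 ± 0.36 (SE; edgeR adjusted p = 0.796) for GNA11 Q209L Bap1 KO over BRAF V600E Bap1 KO tumours. The 12 endothelial markers summed to 911 to 1964 CPM in GNA11 Q209L Bap1 KO tumours, 1331 to 1621 CPM in GNA11 Q209L tumours, and 241 to 604 CPM in BRAF V600E Bap1 KO tumours, and 3 of the 12 were higher in GNA11 Q209L Bap1 KO tumours than in BRAF V600E Bap1 KO tumours. Cdh9 and Cdh10, neighbours of Cdh6 on chromosome 15 and cadherins mainly of brain, fall outside the rule for named genes and were picked out after their values were seen. Cdh9 was at 0 to 0.0952 CPM in GNA11 Q209L Bap1 KO tumours, against 0.811 and 2.81 CPM in GNA11 Q209L tumours, a log2 fold change of -5.59 ± 1.15 (SE; edgeR adjusted p = 0.137) that did not pass, though it did with DESeq2 (-5.81, adjusted p = 0.00691). Cdh10 was at 7.65, 21.3, 3.90, 12.95 and 7.45 CPM in GNA11 Q209L Bap1 KO tumours, against 0.785 and 2.54 CPM in GNA11 Q209L tumours, with no overlap and a log2 fold change of 2.68 ± 1.58 (SE; edgeR adjusted p = 0.577).

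Cdh13 was the member with the highest summed reads among the Cdh genes in GNA11 Q209L Bap1 KO tumours. It encodes T-cadherin, which is held at the membrane by a GPI anchor and has no cytoplasmic tail. It was at 634, 749, 865, 729 and 925 CPM in GNA11 Q209L Bap1 KO tumours, 113 and 251 CPM in GNA11 Q209L tumours, and 539, 193, 40.8 and 61.4 CPM in BRAF V600E Bap1 KO tumours. All 5 GNA11 Q209L Bap1 KO libraries lay above both GNA11 Q209L libraries and above all 4 BRAF V600E Bap1 KO libraries. The GNA11 Q209L Bap1 KO mean was 4.29 times that of GNA11 Q209L tumours, with a log2 fold change of 2.10 ± 0.90 (SE; edgeR adjusted p = 0.414) that did not pass. Relative to BRAF V600E Bap1 KO tumours it rose 3.74-fold, with a log2 fold change of 1.90 ± 0.67 (SE; edgeR adjusted p = 0.0433). That call is close to the threshold. It ended in 8 of the 9 fits that left out 1 library, with adjusted p-values of 0.057 to 0.0889, and was 2.98 (adjusted p = 0.00388) without BRAF V600E Bap1 KO replicate 1. It also ended without the 2 BRAF V600E Bap1 KO libraries of NA status (1.39, adjusted p = 0.234), with the Xist level as a covariate (adjusted p = 0.0592) and with the libraries of a shared identifier summed (adjusted p = 0.0611).

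Cdh23, which forms the tip links of inner ear hair cells, fell in GNA11 Q209L Bap1 KO tumours relative to BRAF V600E Bap1 KO tumours. It was at 0.597, 0.166, 0.703, 0.238 and 0.277 CPM in GNA11 Q209L Bap1 KO tumours, 0.837 and 0.580 CPM in GNA11 Q209L tumours, and 6.31, 5.48, 2.79 and 4.44 CPM in BRAF V600E Bap1 KO tumours. The lowest BRAF V600E Bap1 KO library was several-fold above the highest GNA11 library. Its log2 ratio was -3.59 ± 0.53 (SE; edgeR adjusted p = 0.00118) for GNA11 Q209L Bap1 KO over BRAF V600E Bap1 KO tumours and -2.74 ± 0.73 (SE; edgeR adjusted p = 0.0348) for GNA11 Q209L over BRAF V600E Bap1 KO tumours. Cdh26, an atypical cadherin of epithelial cells, also fell, at 0.163, 0, 0.0541, 0.0952 and 0.294 CPM in GNA11 Q209L Bap1 KO tumours, 0.314 and 0.0446 CPM in GNA11 Q209L tumours, and 1.72, 6.06, 0.313 and 0.435 CPM in BRAF V600E Bap1 KO tumours. Its log2 fold change was -3.98 ± 1.09 (SE; edgeR adjusted p = 0.0158) for GNA11 Q209L Bap1 KO over BRAF V600E Bap1 KO tumours, and -2.64 (adjusted p = 0.0526) without BRAF V600E Bap1 KO replicate 2. Cdh17, the cadherin of intestine, stayed between 0.162 and 1.14 CPM in all libraries and did not pass in any comparison.

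Of the delta-1 protocadherins, named after their conserved cytoplasmic motifs, 1 fell and 1 rose in GNA11 Q209L Bap1 KO tumours relative to BRAF V600E Bap1 KO tumours, against 24.7% and 16.5% of all genes. Pcdh7 was at 14.01, 9.62, 5.95, 4.19 and 6.29 CPM in GNA11 Q209L Bap1 KO tumours, 16.7 and 53.8 CPM in GNA11 Q209L tumours, and 587, 235, 84.02 and 62.4 CPM in BRAF V600E Bap1 KO tumours. The 3 genotypes did not overlap: GNA11 Q209L Bap1 KO was lowest, GNA11 Q209L lay above it and BRAF V600E Bap1 KO tumours above both. The mean was 30.2-fold lower in GNA11 Q209L Bap1 KO tumours than in BRAF V600E Bap1 KO tumours, a log2 fold change of -4.92 ± 0.73 (SE; edgeR adjusted p = 0.00121), and it was -4.00 without BRAF V600E Bap1 KO replicate 1. Against GNA11 Q209L the log2 fold change of GNA11 Q209L Bap1 KO was -2.14 ± 0.76 (SE; edgeR adjusted p = 0.353), and for GNA11 Q209L over BRAF V600E Bap1 KO tumours it was -2.78 ± 0.97 (SE; edgeR adjusted p = 0.0712), neither past the threshold.

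Pcdh11x, an X-linked protocadherin of the nervous system, was at 3.26, 1.11, 1.35, 0.666 and 5.43 CPM in GNA11 Q209L Bap1 KO tumours, 0 and 0.0446 CPM in GNA11 Q209L tumours, and 0.135, 0.0341, 0.279 and 0.218 CPM in BRAF V600E Bap1 KO tumours. Both GNA11 Q209L libraries together held 1 read of it. Relative to BRAF V600E Bap1 KO tumours it rose 14.2-fold, with a log2 fold change of 3.82 ± 0.90 (SE; edgeR adjusted p = 0.00854). That call ended without the 2 BRAF V600E Bap1 KO libraries of NA status (3.53, adjusted p = 0.0529). Relative to that 1 read the mean of GNA11 Q209L Bap1 KO was 143-fold, with a counting interval of 25.7 to 5657 (exact Poisson, counting error alone). The adjusted p of this difference was 0.17 with edgeR and 0.00216 with DESeq2.

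Pcdh1, a protocadherin of epithelia, was at 25.95, 21.3, 21.6, 15.1 and 23.00 CPM in GNA11 Q209L Bap1 KO tumours, 37.6 and 48.5 CPM in GNA11 Q209L tumours, and 19.01, 6.06, 115 and 124 CPM in BRAF V600E Bap1 KO tumours. GNA11 Q209L Bap1 KO lay below both GNA11 Q209L libraries, while of the BRAF V600E Bap1 KO libraries replicate 1 lay within its range, replicate 2 below it and the 2 libraries rich in keratinocyte markers far above. Its log2 ratio of GNA11 Q209L Bap1 KO over BRAF V600E Bap1 KO was -1.63 ± 0.68 (SE; edgeR adjusted p = 0.0765). It passed without BRAF V600E Bap1 KO replicate 1 (-1.94, adjusted p = 0.0397), without replicate 2 (-2.01, adjusted p = 0.0122) and with DESeq2 (adjusted p = 0.0414).

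Of the 5 delta-2 protocadherins 4 were tested. All 4 had negative log2 fold changes for GNA11 Q209L Bap1 KO over BRAF V600E Bap1 KO tumours, of -3.51 to -1.01, and 2 of them passed, where 24.7% of all genes fell. The sum of the 5 was 8.60 to 24.3 CPM in GNA11 Q209L Bap1 KO tumours, 11.7 and 27.0 CPM in GNA11 Q209L tumours, and 46.4 to 121.8 CPM in BRAF V600E Bap1 KO tumours. Pcdh19, an X-linked gene whose human counterpart is mutated in an epilepsy of girls, was at 3.96, 2.71, 3.14, 3.43 and 5.06 CPM in GNA11 Q209L Bap1 KO tumours, 8.40 and 2.05 CPM in GNA11 Q209L tumours, and 73.4, 36.7, 23.7 and 33.8 CPM in BRAF V600E Bap1 KO tumours. Every BRAF V600E Bap1 KO library exceeded every GNA11 library, and GNA11 Q209L Bap1 KO tumours and GNA11 Q209L tumours overlapped. The log2 fold change was -3.51 ± 0.47 (SE; edgeR adjusted p = 0.000761) for GNA11 Q209L Bap1 KO over BRAF V600E Bap1 KO tumours and -3.00 ± 0.66 (SE; edgeR adjusted p = 0.0192) for GNA11 Q209L over BRAF V600E Bap1 KO tumours.

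Pcdh18, a protocadherin studied mainly in the nervous system, was at 1.14, 1.33, 1.14, 3.29 and 2.09 CPM in GNA11 Q209L Bap1 KO tumours, 6.73 and 3.66 CPM in GNA11 Q209L tumours, and 15.1, 35.4, 16.6 and 14.3 CPM in BRAF V600E Bap1 KO tumours. The genotypes were in the same order as for Pcdh7, with no overlap between any of them. The log2 fold change was -3.50 ± 0.47 (SE; edgeR adjusted p = 0.000768) for GNA11 Q209L Bap1 KO over BRAF V600E Bap1 KO tumours, -1.53 ± 0.52 (SE; edgeR adjusted p = 0.337) for GNA11 Q209L Bap1 KO over GNA11 Q209L tumours and -1.97 ± 0.63 (SE; edgeR adjusted p = 0.0559) for GNA11 Q209L over BRAF V600E Bap1 KO tumours. Pcdh17, a synaptic protocadherin, was at 4.27 to 16.9 CPM in GNA11 Q209L Bap1 KO tumours, 5.80 to 11.8 CPM in GNA11 Q209L tumours, and 3.61 to 49.04 CPM in BRAF V600E Bap1 KO tumours. Its groups overlapped and it did not pass in any comparison. Pcdh10 was under 0.225 CPM in all GNA11 Q209L Bap1 KO libraries and at 0.174 to 2.17 CPM in BRAF V600E Bap1 KO tumours, with an adjusted p of 0.0541.

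Cdh6, Pcdh7, Pcdh18 and Pcdh19 fell in GNA11 Q209L Bap1 KO tumours relative to BRAF V600E Bap1 KO tumours under every alternative processing and have a promoter entry in the RefSeq table used here (18 of the 53 members have one). Their promoters, from 250 bases before to 50 after the gene start in GRCm38.p6, are shown to set out what these members share at the sequence level. Capitals mark each CANNTG, the E-box core bound by basic helix-loop-helix factors such as Twist1 and, as CACCTG or CAGGTG, by the zinc-finger repressors Snai1 and Zeb2. The letters were searched on both strands, and CACCTG and CAGGTG are forms of CANNTG.
Cdh6 promoter, chr15:13173626-13173925, minus strand: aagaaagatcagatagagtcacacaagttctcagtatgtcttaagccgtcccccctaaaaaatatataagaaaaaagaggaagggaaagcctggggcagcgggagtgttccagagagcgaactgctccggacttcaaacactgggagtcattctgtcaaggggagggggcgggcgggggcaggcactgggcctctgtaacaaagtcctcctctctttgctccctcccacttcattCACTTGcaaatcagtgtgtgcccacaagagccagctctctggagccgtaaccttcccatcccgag
Pcdh7 promoter, chr5:57717831-57718130, plus strand: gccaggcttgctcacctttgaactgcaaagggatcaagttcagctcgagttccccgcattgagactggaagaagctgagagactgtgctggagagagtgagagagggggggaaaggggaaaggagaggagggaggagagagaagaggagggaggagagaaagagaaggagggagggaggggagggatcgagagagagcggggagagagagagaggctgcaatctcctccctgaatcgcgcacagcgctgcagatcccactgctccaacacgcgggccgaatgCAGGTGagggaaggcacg
Pcdh18 promoter, chr3:49757267-49757566, minus strand: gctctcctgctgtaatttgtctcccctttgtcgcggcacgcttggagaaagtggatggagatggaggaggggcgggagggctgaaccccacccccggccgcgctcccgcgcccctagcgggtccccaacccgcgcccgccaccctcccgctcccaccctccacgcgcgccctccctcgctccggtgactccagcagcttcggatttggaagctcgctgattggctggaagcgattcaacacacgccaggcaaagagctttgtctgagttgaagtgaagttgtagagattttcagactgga
Pcdh19 promoter, chrX:133688944-133689243, minus strand: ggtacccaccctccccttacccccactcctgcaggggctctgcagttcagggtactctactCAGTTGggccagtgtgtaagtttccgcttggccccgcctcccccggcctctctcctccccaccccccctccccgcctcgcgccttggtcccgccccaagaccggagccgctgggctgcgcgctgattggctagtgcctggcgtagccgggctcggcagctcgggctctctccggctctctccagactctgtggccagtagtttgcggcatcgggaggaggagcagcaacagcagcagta
A CANNTG was found 1 time in the windows of Cdh6, Pcdh7 and Pcdh19 and 0 times in that of Pcdh18. The window of Pcdh7 alone held the form CAGGTG. Of the 32851 RefSeq promoters, 72.3% hold a CANNTG and 20.2% hold CACCTG or CAGGTG, so 3 of 4 is near the share of all promoters. The GC content of the 4 windows was 53.0, 59.3, 63.0 and 67.7% in the order shown.

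**Figure D3:**
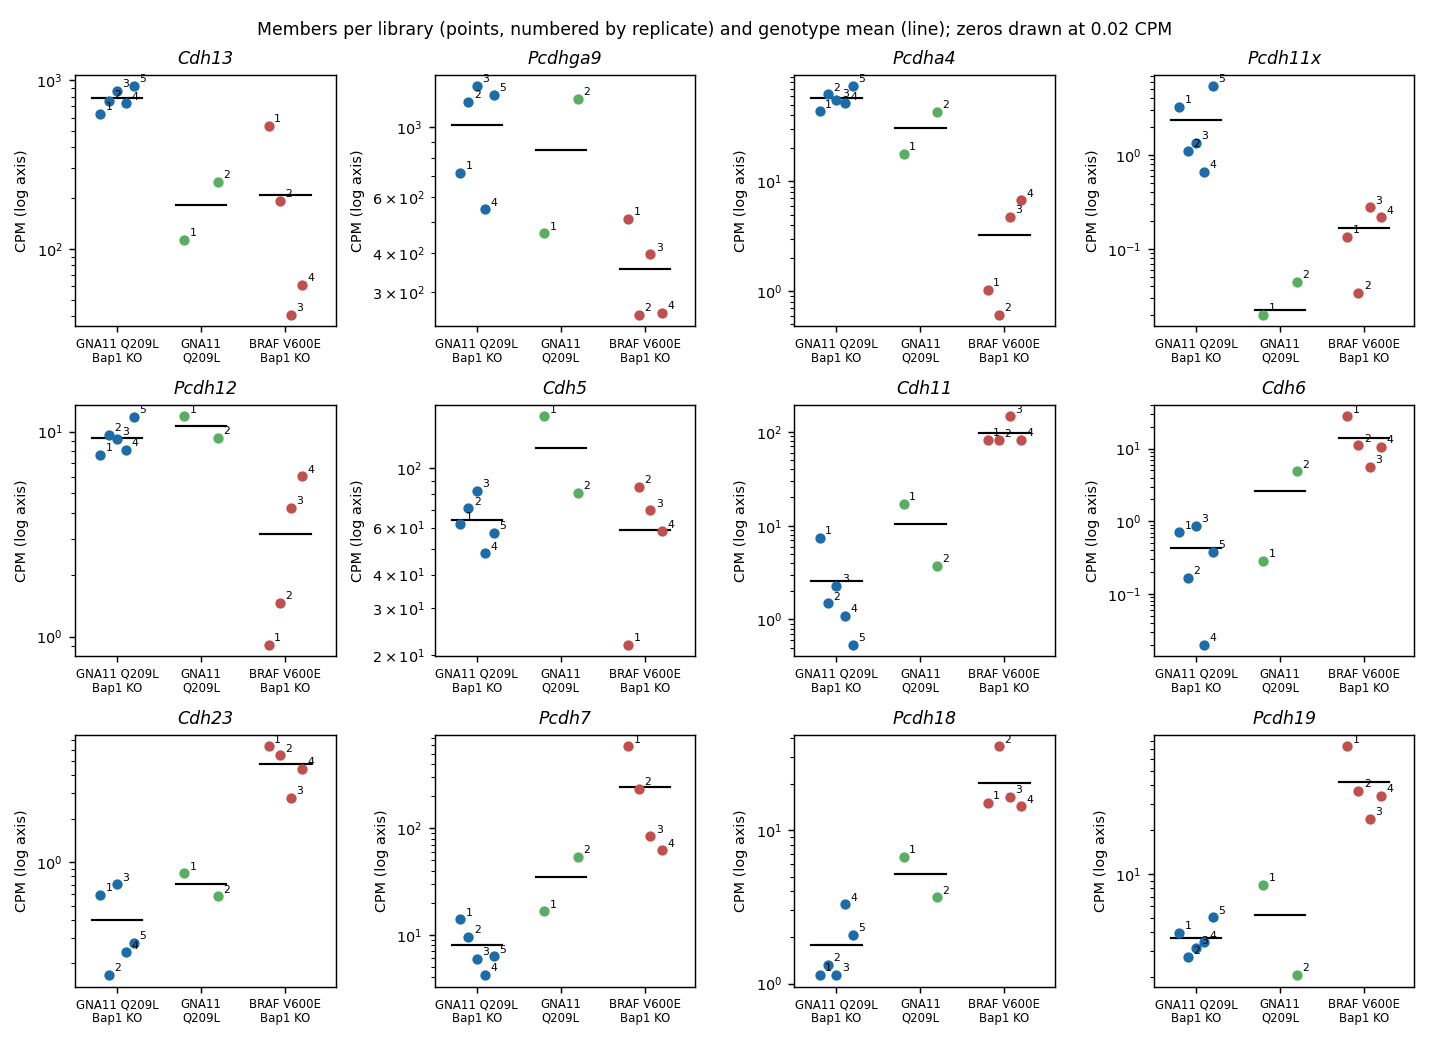
CPM of 12 members per library on log axes, with points numbered by replicate, black lines for genotype means and values of 0 drawn at 0.02 CPM. Cdh13 and Pcdha4 are highest in GNA11 Q209L Bap1 KO tumours, while for Cdh11, Cdh23, Pcdh7, Pcdh18 and Pcdh19 all 4 BRAF V600E Bap1 KO libraries lie above all GNA11 libraries.

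Of the other non-clustered protocadherins, Pcdh12, which is made mainly by endothelial cells, was at 7.71, 9.62, 9.20, 8.14 and 11.8 CPM in GNA11 Q209L Bap1 KO tumours, 11.9 and 9.32 CPM in GNA11 Q209L tumours, and 0.910, 1.46, 4.25 and 6.05 CPM in BRAF V600E Bap1 KO tumours. The GNA11 libraries were alike, and all 4 BRAF V600E Bap1 KO libraries were lower. It rose in GNA11 Q209L Bap1 KO tumours relative to BRAF V600E Bap1 KO tumours, with a log2 fold change of 1.55 ± 0.53 (SE; edgeR adjusted p = 0.0368), a call that ended in 4 of the 9 fits that left out 1 library (GNA11 Q209L Bap1 KO replicates 1, 2 and 5 and BRAF V600E Bap1 KO replicate 2), with adjusted p-values up to 0.0829. It also ended in the fit of these 2 genotypes alone (adjusted p = 0.0506) and with the Xist level as a covariate (adjusted p = 0.0593). The summed endothelial markers given above did not overlap between GNA11 Q209L Bap1 KO tumours and BRAF V600E Bap1 KO tumours either, and their part was not tested. Pcdh20 was at 6.24, 0.387, 2.92, 1.62 and 1.28 CPM in GNA11 Q209L Bap1 KO tumours, 6.25 and 41.2 CPM in GNA11 Q209L tumours, and 9.26, 1.46, 90.01 and 62.4 CPM in BRAF V600E Bap1 KO tumours. BRAF V600E Bap1 KO replicates 3 and 4 and GNA11 Q209L replicate 2 were high and the other libraries under 10 CPM, so the GNA11 Q209L Bap1 KO libraries overlapped those of BRAF V600E Bap1 KO. Pcdh20 passed, with a log2 fold change of -4.04 ± 1.14 (SE; edgeR adjusted p = 0.0179) for GNA11 Q209L Bap1 KO over BRAF V600E Bap1 KO tumours. It was -3.31 (adjusted p = 0.0438) without BRAF V600E Bap1 KO replicate 3, -4.72 without GNA11 Q209L Bap1 KO replicate 1, and did not pass with limma voom (adjusted p = 0.126). Pcdh15, the partner of Cdh23 in the hair cell tip link, stayed at or under 4.12 CPM and did not pass.

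The clustered protocadherins lie on chromosome 18 and carry the largest uncertainty of naming. Alpha and gamma isoforms share their last exons, and the table holds 1 row for each of these clusters. The row labelled Pcdha4 has an ID (ENSMUSG00000007440) that GENCODE names Pcdha11, and the row labelled Pcdhga9 has an ID (ENSMUSG00000023036) that GENCODE names Pcdhgc4. How reads of shared exons were assigned is not given in the sources used here, so these rows are read as alpha and gamma cluster signal and not as single isoforms.

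The alpha row (Pcdha4) was at 43.6, 62.2, 54.7, 51.5 and 73.99 CPM in GNA11 Q209L Bap1 KO tumours, 17.9 and 43.1 CPM in GNA11 Q209L tumours, and 1.03, 0.613, 4.77 and 6.74 CPM in BRAF V600E Bap1 KO tumours. All 7 GNA11 libraries lay above all 4 BRAF V600E Bap1 KO libraries, and the 5 GNA11 Q209L Bap1 KO libraries lay above both GNA11 Q209L libraries, the closest pair being 43.6 CPM in GNA11 Q209L Bap1 KO tumours and 43.1 CPM in GNA11 Q209L tumours. The GNA11 Q209L Bap1 KO mean was 17.4 times that of BRAF V600E Bap1 KO tumours, a log2 fold change of 4.12 ± 0.71 (SE; edgeR adjusted p = 0.00227), which passed under every alternative and was 4.74 without BRAF V600E Bap1 KO replicate 4. It was 3.22 ± 0.76 (SE; edgeR adjusted p = 0.0233) for GNA11 Q209L over BRAF V600E Bap1 KO tumours, and 0.91 ± 0.78 (SE; edgeR adjusted p = 0.723) for GNA11 Q209L Bap1 KO over GNA11 Q209L tumours. The gamma row (Pcdhga9) was at 718, 1204, 1349, 549 and 1266 CPM in GNA11 Q209L Bap1 KO tumours, 462 and 1229 CPM in GNA11 Q209L tumours, and 512, 255, 396 and 259 CPM in BRAF V600E Bap1 KO tumours. The lowest GNA11 Q209L Bap1 KO library was just above the highest BRAF V600E Bap1 KO library. Its log2 fold change was 1.52 ± 0.41 (SE; edgeR adjusted p = 0.0158) for GNA11 Q209L Bap1 KO over BRAF V600E Bap1 KO tumours, which ended only without the 2 BRAF V600E Bap1 KO libraries of NA status (1.15, adjusted p = 0.144).

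The 21 beta genes, single-exon genes that follow each other from Pcdhb2 to Pcdhb22, had mostly negative differences. In GNA11 Q209L Bap1 KO tumours over BRAF V600E Bap1 KO tumours, 20 of the 21 had a log2 fold change below 0, with a median of -1.55, and 7 of the 21 fell (33.3% against 24.7% of all genes) and 0 rose. The 7 were Pcdhb2, Pcdhb3, Pcdhb6, Pcdhb7, Pcdhb9, Pcdhb15 and Pcdhb17. Summed over the cluster, the level was 35.9, 37.8, 82.00, 43.8 and 52.9 CPM in GNA11 Q209L Bap1 KO tumours, 65.7 and 55.5 CPM in GNA11 Q209L tumours and 44.4, 108, 176 and 70.3 CPM in BRAF V600E Bap1 KO tumours. The sums overlapped, and BRAF V600E Bap1 KO replicate 3 was the highest library for 12 of the 21 genes.

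Pcdhb9 was at 1.25, 0.995, 2.71, 1.43 and 0.761 CPM in GNA11 Q209L Bap1 KO tumours, 4.06 and 1.92 CPM in GNA11 Q209L tumours, and 1.34, 2.72, 27.5 and 6.004 CPM in BRAF V600E Bap1 KO tumours, where 1 BRAF V600E Bap1 KO library stood above the rest. Its log2 fold change for GNA11 Q209L Bap1 KO over BRAF V600E Bap1 KO was -2.72 ± 0.82 (SE; edgeR adjusted p = 0.0231), and -1.25 (adjusted p = 0.133) without BRAF V600E Bap1 KO replicate 3. Pcdhb17 was at 5.48, 2.77, 10.4, 5.95 and 8.11 CPM in GNA11 Q209L Bap1 KO tumours, 12.95 and 13.6 CPM in GNA11 Q209L tumours, and 9.74, 22.1, 17.5 and 8.70 CPM in BRAF V600E Bap1 KO tumours, with a log2 fold change of -1.15 ± 0.42 (SE; edgeR adjusted p = 0.047) and overlapping groups. Pcdhb3 (-2.83, edgeR adjusted p = 0.0212), Pcdhb6 (-3.90, edgeR adjusted p = 0.0244), Pcdhb7 (-2.76, edgeR adjusted p = 0.0346) and Pcdhb15 (-1.70, edgeR adjusted p = 0.0285) had the same direction. In GNA11 Q209L Bap1 KO tumours Pcdhb2 (0.0864 to 0.190 CPM), Pcdhb3 (0.121 to 0.433 CPM) and Pcdhb6 (0.0346 to 0.325 CPM) were near the limit of detection. The size of their fold changes is therefore uncertain. Without BRAF V600E Bap1 KO replicate 3, Pcdhb2 did not pass the filter on low counts and the other 6 beta calls ended, with adjusted p-values of 0.0943 to 0.154. All 7 ended with limma voom (adjusted p-values of 0.0629 to 0.248), and 6 of the 7 ended without GNA11 Q209L Bap1 KO replicate 5 and with the libraries of a shared identifier summed. Near-identical beta genes can exchange reads, so the level of a single beta gene is uncertain. Against GNA11 Q209L, the median of the 21 in GNA11 Q209L Bap1 KO was -0.12 and 13 of them were below 0.

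**Figure D4:**
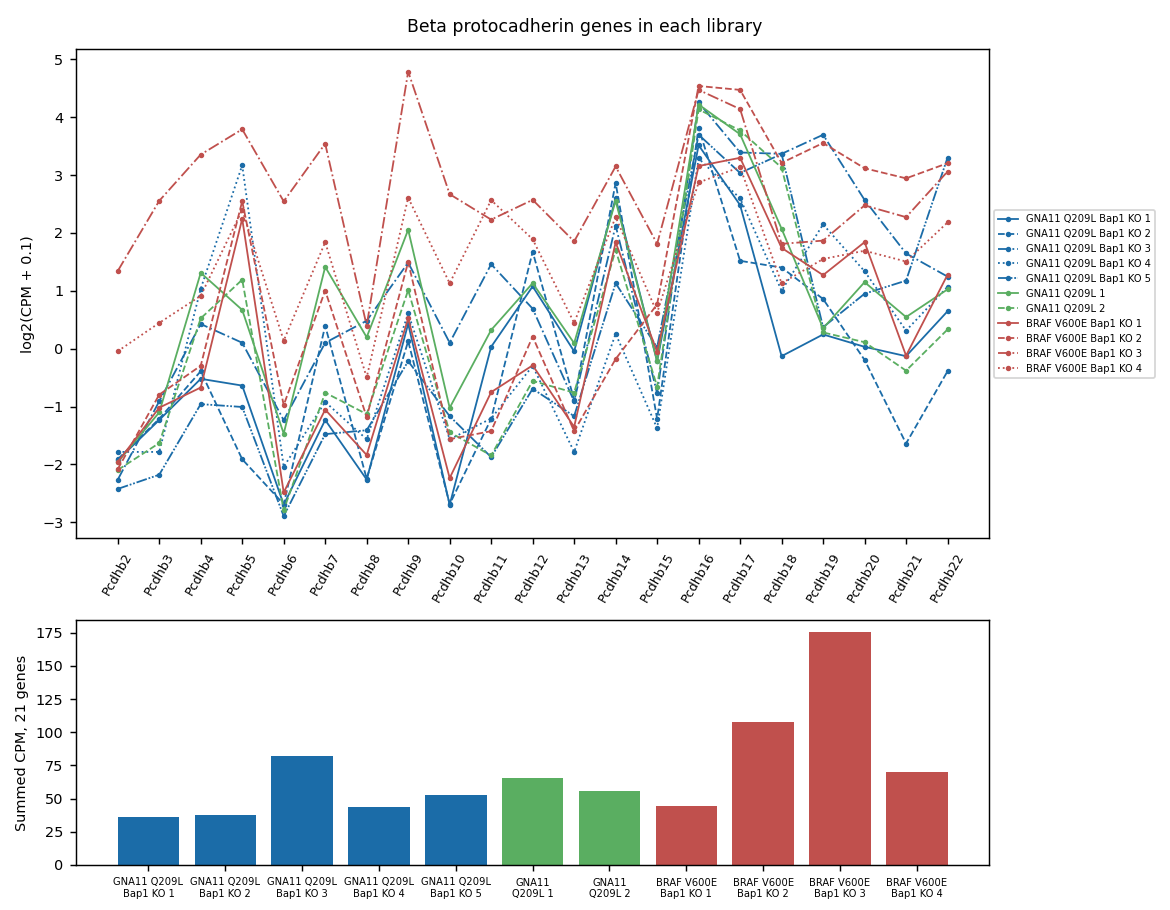
Levels of the 21 beta protocadherin genes along the cluster, 1 line per library, as log2(CPM + 0.1) (top), and their summed CPM per library as bars from 0 (bottom). BRAF V600E Bap1 KO replicate 3 lies above the other libraries over most of the left side of the cluster and has the highest sum (175.6 CPM).

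With 0 calls against GNA11 Q209L tumours, the members of GNA11 Q209L Bap1 KO can be described by separation. In 12 of the 50 tested (24.0%, against 16.6% of all genes) the 5 GNA11 Q209L Bap1 KO libraries did not overlap the 2 GNA11 Q209L libraries. In 5 they were above, against 7.57% of all genes (Pcdha4, Cdh10, Cdh13, Pcdh11x and Cdh24) and in 7 below, against 9.01% (Cdh9, Pcdh7, Pcdh18, Pcdhb17, Pcdh20, Pcdh1 and Pcdh9), with adjusted p-values of 0.137 to 0.776. The members named Cdh summed to 878 to 1170 CPM in GNA11 Q209L Bap1 KO tumours, against 465.5 and 529 CPM in GNA11 Q209L tumours, without overlap. The mean of this sum was 1023 CPM in GNA11 Q209L Bap1 KO tumours and 497 CPM in GNA11 Q209L tumours. Cdh13 alone had means of 780 and 182 CPM, a larger difference than that of the sum. The other Cdh members together were thus not higher on average in GNA11 Q209L Bap1 KO tumours. The delta-1 protocadherins summed to 21.3 to 45.9 CPM in GNA11 Q209L Bap1 KO tumours, against 58.0 and 111 CPM in GNA11 Q209L tumours, again without overlap. Between GNA11 Q209L Bap1 KO tumours and BRAF V600E Bap1 KO tumours, 13 of the 50 did not overlap (26.0%, against 31.8% of all genes), 5 above and 8 below (14.7% and 17.1% of all genes). Comparing GNA11 Q209L with BRAF V600E Bap1 KO tumours, 16 did not overlap (32.0%, against 41.9%), 3 above and 13 below (19.0% and 22.8%).

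**Figure D5:**
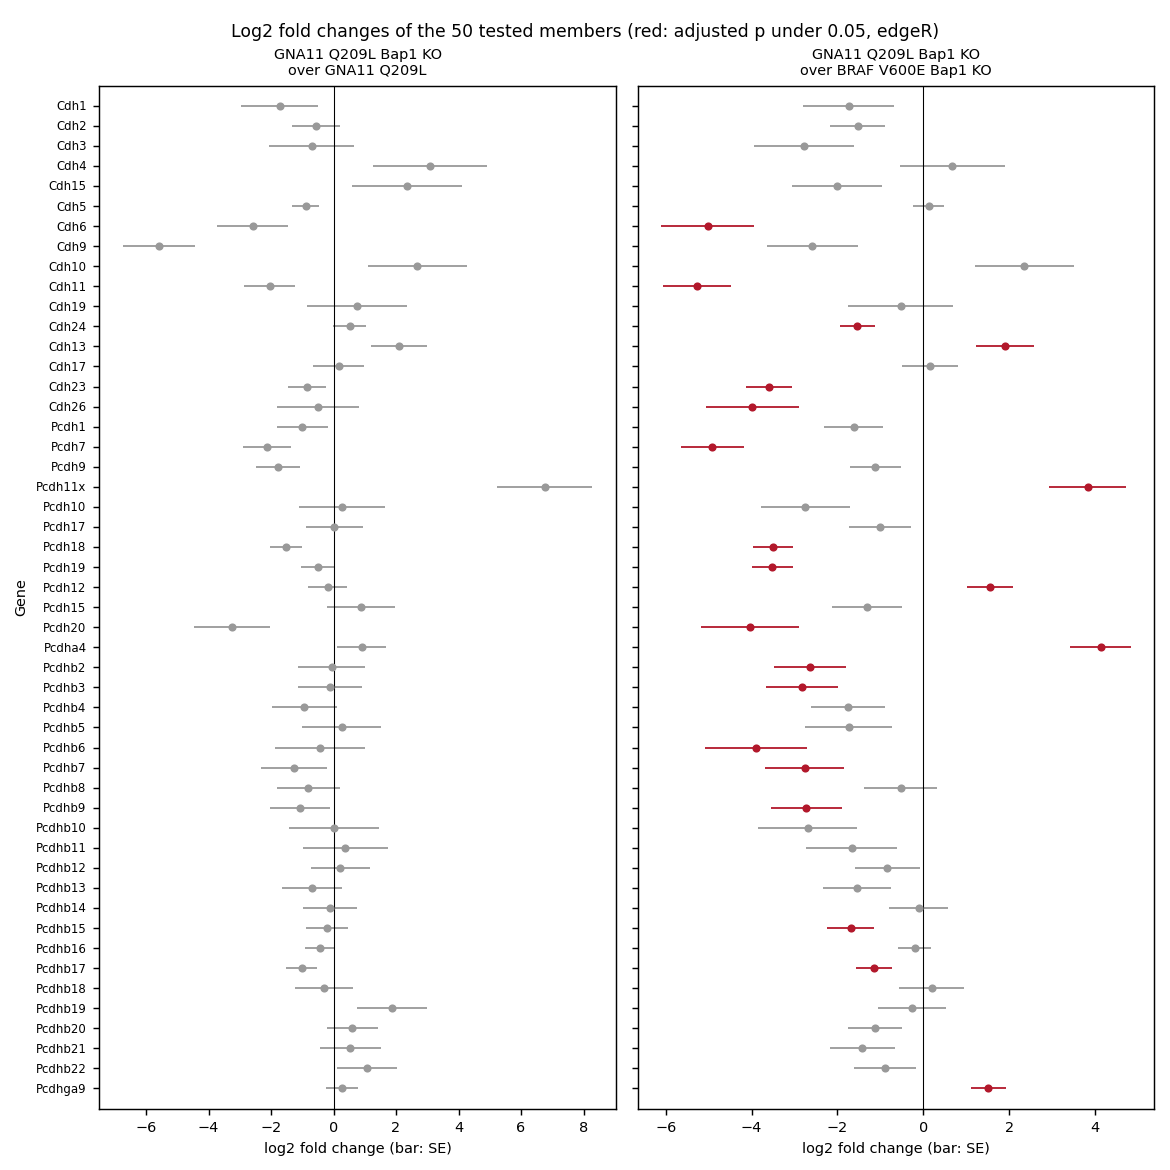
Log2 fold change of each of the 50 tested members, with the standard error as a bar, for GNA11 Q209L Bap1 KO over GNA11 Q209L (left) and GNA11 Q209L Bap1 KO tumours over BRAF V600E Bap1 KO (right), with an adjusted p under 0.05 in red. No member is red on the left, and 5 are red to the right of 0 and 16 to the left of 0 in the right panel.

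The proteins that cadherins work with were read from 4 further gene lists. None of their genes passed between GNA11 Q209L Bap1 KO tumours and GNA11 Q209L tumours by edgeR, where 0.0288% of all genes did. Some passed between GNA11 Q209L Bap1 KO tumours and BRAF V600E Bap1 KO tumours, where 41.2% of all genes did. Of 18 catenins and junction linkers tested, 4 rose and 5 fell in GNA11 Q209L Bap1 KO tumours relative to BRAF V600E Bap1 KO tumours, where 16.5% of all genes rose and 24.7% fell. The list median was -0.66, against -0.26 for all genes. Ctnnb1 (beta-catenin) was at 1764 to 2619 CPM in GNA11 Q209L Bap1 KO tumours, 2235 and 1769 CPM in GNA11 Q209L tumours, and 328 to 697 CPM in BRAF V600E Bap1 KO tumours. It rose in GNA11 Q209L Bap1 KO tumours relative to BRAF V600E Bap1 KO tumours by 1.99 ± 0.32 (SE; edgeR adjusted p = 0.00169) on the log2 scale, as did its armadillo relative Pkp4 by 2.86 ± 0.33 (SE; edgeR adjusted p = 0.000357). Ctnna1 (alpha-catenin) was higher by 0.82 ± 0.24 (SE; edgeR adjusted p = 0.0204), and Pvrl4, the nectin 4 of epithelia, was lower, at -3.95 ± 1.02 (SE; edgeR adjusted p = 0.0128).

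Of the 10 desmosomal cadherins and desmoplakin, which join keratinocytes, 4 fell and 0 rose in GNA11 Q209L Bap1 KO tumours relative to BRAF V600E Bap1 KO (Dsg1a, Dsg1c, Dsc3 and Dsc1), where 24.7% of all genes fell. The list median was -5.17, against -0.26 for all genes. The list summed to 1.45 to 152 CPM in GNA11 Q209L Bap1 KO tumours, 1.16 to 4.08 CPM in GNA11 Q209L tumours, and 49.4 to 2321 CPM in BRAF V600E Bap1 KO tumours. Within GNA11 Q209L Bap1 KO the 151.6 CPM was replicate 1 and the other 4 libraries were at or under 7.13 CPM, and in BRAF V600E Bap1 KO replicates 3 and 4 had 1968 and 2321 CPM. Of 15 other cadherin-repeat genes tested, 3 rose and 4 fell, against 16.5% and 24.7% of all genes, with a list median of -0.78. Fat3, a giant atypical cadherin, was at 27.6 to 336 CPM in GNA11 Q209L Bap1 KO tumours, 29.6 and 46.6 CPM in GNA11 Q209L tumours, and 0.204 to 1.64 CPM in BRAF V600E Bap1 KO tumours, with a log2 fold change of 7.51 ± 1.05 (SE; edgeR adjusted p = 0.000883) for GNA11 Q209L Bap1 KO over BRAF V600E Bap1 KO tumours. Clstn1 (calsyntenin 1) was higher by 1.82 ± 0.32 (SE; edgeR adjusted p = 0.0025), and Celsr1, a planar polarity cadherin, was lower, at -4.41 ± 0.87 (SE; edgeR adjusted p = 0.00418). Ret, a receptor kinase with cadherin-like domains, was lower too, at -4.40 ± 0.95 (SE; edgeR adjusted p = 0.00617).

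Of the 5 E-box repressors of Cdh1 tested, 3 fell and 0 rose in GNA11 Q209L Bap1 KO tumours relative to BRAF V600E Bap1 KO tumours, against 24.7% and 16.5% of all genes. The list median was -3.60. Twist1 was at 0.487 to 1.63 CPM in GNA11 Q209L Bap1 KO tumours, 9.05 and 1.43 CPM in GNA11 Q209L tumours, and 17.3 to 168 CPM in BRAF V600E Bap1 KO tumours, with a log2 fold change of -6.38 ± 0.85 (SE; edgeR adjusted p = 0.000765). Snai1 (-3.86 ± 0.59 (SE; edgeR adjusted p = 0.00134)) and Twist2 (-3.60 ± 1.17 (SE; edgeR adjusted p = 0.031)), which is also a fibroblast marker here, were lower as well. Zeb2 did not pass, at 165 to 327 CPM in GNA11 Q209L Bap1 KO tumours, 222 and 151 CPM in GNA11 Q209L tumours, and 115 to 318 CPM in BRAF V600E Bap1 KO tumours. Zeb1 was not analysed here. In BRAF V600E Bap1 KO tumours, Twist1 was at 167.5 and 89.0 CPM in replicates 1 and 2, where Cdh1 was low and Cdh2 high. It was at 24.1 and 17.3 CPM in replicates 3 and 4, where Cdh1 was high. Snai1 and Twist2 were also higher in replicates 1 and 2, and Snai2 ranged only from 15.9 to 23.6 CPM. Zeb2 went the other way, at 115 and 142 CPM in replicates 1 and 2 and 318 and 248 CPM in replicates 3 and 4. The part of these factors in the level of Cdh1 was not tested. In GNA11 Q209L Bap1 KO tumours all 5 libraries had Twist1 under 2 CPM, while Cdh1 ranged from 3.23 to 67.3 CPM. Replicate 3, the highest of them in Cdh1, had Twist2 at 12.9 CPM, against 0.381 to 2.39 CPM in the others. It also had the highest Zeb2 of its genotype (327 CPM), while Snai1 and Snai2 were not highest there.

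Between GNA11 Q209L tumours and BRAF V600E Bap1 KO tumours the calls were those of Pcdha4, which was higher, and of Cdh23, Pcdh19 and Cdh24, which were lower, with the values given above. With 2 libraries in GNA11 Q209L tumours these calls were fragile: leaving out GNA11 Q209L replicate 2 ended all 4, with adjusted p-values of 0.152 to 0.259, and the fit of these 2 genotypes alone called 0 (edgeR, 9 at an unadjusted p under 0.05), while limma voom and DESeq2 on all libraries called 8 and 10. Cdh11 (-3.23, adjusted p = 0.0589), Pcdh18 (-1.97, adjusted p = 0.0559) and Pcdh7 (-2.78, adjusted p = 0.0712) came near the threshold without passing it, each with both GNA11 Q209L libraries below all 4 BRAF V600E Bap1 KO libraries.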

How the data were processed

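RNA sequencing libraries from 11 mouse skin tumours were read from a single table of expected counts per gene, deposited by the authors without normalisation. The values are whole numbers, so rounding changed none. STAR and mm9 are named in the submitters' processing notes; the sources used here do not name the counting program, annotation or strand setting. After dropping 7 repeated lines, 18756 genes were used, with totals of 18338082 to 81035135 counts per library. Expression was tested with edgeR 4.0.16 (R 4.3.3): TMM scaling, filterByExpr by group, a quasi-likelihood fit of all 11 libraries with genotype as the only term, and Benjamini-Hochberg adjustment over 17350 genes at a threshold of 0.05. The SE of a log2 fold change was its size divided by the square root of F. The fit was also run on simulated counts, drawn independently for each gene and library. These held no added outlier libraries or mixed tissue, so that run says nothing about such libraries. CPM are TMM-scaled. Exon lengths, chromosomes and IDs came from GENCODE M21 (GRCm38), used for no coordinate of the files. Nothing says whether libraries are separate animals, so p-values measure the spread between these samples. Intervals and detection limits cover counting error only.

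The members, gene lists and tests were chosen with earlier results of these data known. Of 181 entries of the gene lists, 175 matched a gene. Members are named by this rule: 16 set members (Cdh1, Cdh2, Cdh3, Cdh4, Cdh5, Cdh6, Cdh11, Cdh13, Cdh15, Cdh19, Pcdh1, Pcdh7, Pcdh12, Pcdh17, Pcdh18 and Pcdh19), further members that passed in a comparison with a mean of at least 1 CPM in a genotype, and the 5 most abundant per genotype. This gave 29 names, and other members are named for counts or single libraries after their values were seen. Of the other lists, up to 4 genes with the smallest p are named. Alternatives were DESeq2 1.42.0, limma voom (limma 3.58.1), other scaling and filters, fewer libraries and Xist level as a covariate.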

Additional observations from a re-analysis of the deposited data

Results flagged for a closer look

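In 60 groups of 4 or 5 libraries (the 29 named members and the balance in GNA11 Q209L Bap1 KO tumours and in BRAF V600E Bap1 KO), 9 had a highest library whose gap to the next was large for the range of its group. Chance would flag about 1 in 20 groups if the values were normally distributed, which was not tested here. Genes of one library are not independent of each other. 

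In GNA11 Q209L Bap1 KO tumours, replicate 3 had Cdh1 at 67.3 CPM, against 3.23 to 20.1 CPM in the other 4 libraries, and Cdh4 at 21.4 CPM, against 0.829 to 2.76 CPM. Replicate 1 had Cdh11 at 7.44 CPM, against 0.536 to 2.27 CPM in the others, and Cdh24 at 2.88 CPM, against 1.57 to 1.71 CPM. That replicate also had the highest fibroblast and keratinocyte marker sums of its genotype (2283 and 1695 CPM), whose part was not tested.

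In BRAF V600E Bap1 KO tumours, replicate 3 had Cdh11 at 147 CPM, against 81.7 to 82.8 CPM in the other 3 libraries, Pcdhb3 at 5.78 CPM, against 0.393 to 1.26 CPM, and Pcdhb6 at 5.74 CPM, against 0.0786 to 1.001 CPM. Replicate 4 had Cdh4 at 10.2 CPM, against 0.472 to 2.12 CPM. Replicate 2 had Pcdh18 at 35.4 CPM, against 14.3 to 16.6 CPM.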

How the results depend on the processing

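For GNA11 Q209L Bap1 KO over GNA11 Q209L tumours, edgeR called 0 members in every fit that left out 1 library and DESeq2 called 2. For GNA11 Q209L Bap1 KO over BRAF V600E Bap1 KO tumours, 21 members passed, and 14 to 23 did with 1 library left out. Without BRAF V600E Bap1 KO replicates 2 and 4, whose Bap1 status is NA (an alternative chosen after the data were seen), it was 13 (2 higher, 11 lower), of which 11 are among the 21. For GNA11 Q209L over BRAF V600E Bap1 KO tumours, 4 passed, with 10 by DESeq2, 8 by limma voom, 0 with these genotypes alone, 1 with Xist as a covariate, 2 without the NA libraries and 0 to 7 with 1 library left out. Where GNA11 Q209L is left with 1 library, that library is assumed to vary like the other groups. With 1 library left out, the Cdh1 to Cdh2 balance differed by -3.056 to -1.295 between GNA11 Q209L Bap1 KO tumours and GNA11 Q209L tumours, by -2.04 to 0.70 between GNA11 Q209L Bap1 KO tumours and BRAF V600E Bap1 KO (0.40 without BRAF V600E Bap1 KO replicate 3 and 0.70 without replicate 4) and by 0.13 to 2.87 between GNA11 Q209L tumours and BRAF V600E Bap1 KO tumours. The cause of these shifts was not tested. Pcdha4, Cdh23, Pcdh7, Cdh11, Pcdh18, Cdh6, Pcdh19 and Cdh24 passed for GNA11 Q209L Bap1 KO over BRAF V600E Bap1 KO tumours under every alternative. Across named members, comparisons and alternatives, 1256 values kept their side of the threshold, 82 lost a call and 24 gained one. The 1256 include members that were not called in the main fit and stayed uncalled. The 82 concern called members alone, so these totals do not measure how stable the calls were. No paired analysis was possible because the labels give no pairing of libraries between genotypes. They give no replicate numbers either, so those used here follow the order of the samples within each genotype. Levels under 0.0337 to 0.166 CPM, by library, were not detectable, which limits Cdh6, Cdh9, Cdh15, Cdh22, Cdh26, Pcdh11x, Pcdhb2 and Pcdhb6.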
